A study of Mus musculus with 8 samples.

Results

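Il24 and its relatives of the IL-20 and IL-10 cytokine groups were followed with their receptor chains in tumours grown from MOPC cells, a mouse oropharyngeal carcinoma line, injected under the skin of C57BL/6 mice. The genes were taken by symbol: the ligands Il24, Il19, Il20 and Il10, the receptor chains Il20ra, Il20rb and Il22ra1 used by the IL-20 cytokines, and the chains Il10ra and Il10rb of the IL-10 receptor. The array held a probe set for 8 of these 9 symbols, out of 18194 genes in all, and none for Il19 alone. Il24 was on the list because the study itself had singled it out for its level in knockout tumours at day 6 on these arrays. Its values in every contrast with those arrays are therefore given as a description with no test, and only its day 4 values were tested.

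The hosts were wild-type mice (WT) or mice lacking Tlr3, Tlr7 and Tlr9 (Tlr3/7/9-/-, KO), and tumour tissue was taken at day 4 or day 6 after injection, with 2 arrays in each of the 4 groups of genotype and day. All groups received the same MOPC cells, which kept their own Tlr genes, so the deletion applied to host cells only. Adult mice of both sexes were used in the study, and the labels give no age or sex for the single samples. For day 4 nothing says that the arrays came from separate mice, so the p-values measure the spread between samples, which may be technical. Whole tumour tissue was measured, and fewer cells of a type and less RNA per cell cannot be told apart in such samples.

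IL-19, IL-20 and IL-24 are close relatives of IL-10. All 3 signal through a receptor made of IL-20RA and IL-20RB, and IL-20 and IL-24 also through IL-22RA1 paired with IL-20RB. Epithelial cells such as keratinocytes are their best known targets, and immune cells, stromal cells and keratinocytes can make them. IL-10 acts on leukocytes through IL-10RA and IL-10RB and restrains macrophages and dendritic cells. IL-10RB is also a chain of the receptors for IL-22 and the lambda interferons. These receptors work through Janus kinases and STAT3, and the SOCS proteins limit the signal.

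The sequences next to the start sites are shown for Il20, the ligand that went the opposite way to Il24, and for Il20ra and Il22ra1, the chains that pair with IL-20RB. Each is the 250 bases before the start site in RefSeq on GRCm38.p6, read 5′ to 3′ on the strand of the gene: Il20 at chr1:130911297-130911546 (minus strand), Il20ra at chr10:19712337-19712586 (plus strand) and Il22ra1 at chr4:135727909-135728158 (plus strand). Capitals mark a match to the AP-1 motif TGANTCA.
Il20: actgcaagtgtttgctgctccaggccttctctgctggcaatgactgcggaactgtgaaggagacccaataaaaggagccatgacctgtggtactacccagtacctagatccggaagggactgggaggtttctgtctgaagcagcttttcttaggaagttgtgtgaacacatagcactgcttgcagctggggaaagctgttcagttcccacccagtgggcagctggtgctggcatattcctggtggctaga
Il20ra: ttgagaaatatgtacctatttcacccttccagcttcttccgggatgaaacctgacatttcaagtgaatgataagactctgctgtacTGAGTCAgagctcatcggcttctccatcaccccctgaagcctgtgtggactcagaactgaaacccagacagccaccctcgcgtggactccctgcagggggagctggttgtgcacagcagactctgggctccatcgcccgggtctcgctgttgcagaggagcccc
Il22ra1: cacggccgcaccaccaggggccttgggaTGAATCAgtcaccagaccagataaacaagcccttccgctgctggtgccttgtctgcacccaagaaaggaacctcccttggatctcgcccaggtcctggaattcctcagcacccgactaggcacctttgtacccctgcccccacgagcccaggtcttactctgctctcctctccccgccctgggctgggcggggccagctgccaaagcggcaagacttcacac

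The AP-1 match began 164 bases before the start of Il20ra and 222 bases before that of Il22ra1, and 6.75% of 32851 promoter windows of this length held this motif on either strand. The 250 bases before Il20 and those before Il20rb held no match to any of the 4 motifs searched. The other motifs were the STAT motif TTCNNNGAA, found in 7.02% of all windows, the NF-kB motif GGGNNTTCC, found in 4.98%, and the TATA box TATAAA, found in 12.4%. The window of Il19 held 1 STAT match. Promoter windows were at hand for 5 of the 9 genes, and a match of letters is a description of the sequence and not of binding.

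Some properties of the arrays touch the results. Tlr7 gave signals of 10.8 to 80.1 on the 4 KO arrays and 382.9 to 673.4 on the 4 WT arrays. Tlr3 gave 224 to 427.2 on KO and 543.9 to 811.1 on WT arrays, while Tlr9 gave 84.2 to 128.5 on KO and 20.8 to 137.6 on WT arrays. Whether these probe sets lie in the deleted parts was not tested. The second KO day 6 array carried skin: the summed signal of 7 cornified skin markers was 19467.5 there and 819.7 to 990.2 on the other 7 arrays. Skeletal muscle markers summed to 123847 on the second WT day 4 array, 43157.8 on the second KO day 6 array and 16953.9 on the second KO day 4 array, against 930.6 to 1085.8 on the other 5. Xist, made from the inactive X chromosome of female cells, gave 44.6 to 142.1 on the day 4 arrays and 5579.1 to 7121 on the day 6 arrays, so day and the sex of the tissue cannot be told apart. The summed signal of 4 carcinoma epithelium markers was 51895.8 and 64789.1 on the KO day 6 arrays and 39145.6 to 45053.7 on the other 6.

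Il24 stood high in KO tumours at day 6 and low in every other group. Its signal, the intensity of the probe set on a linear scale, was 996.5 and 1635.5 on the KO day 6 arrays and 133.8 and 103.7 on the WT day 6 arrays. At day 4 it was 141.1 and 52.1 in WT and 130 and 114.7 in KO tumours. The lowest KO day 6 value thus lay above each of the other 6 values, which overlapped one another across genotype and day.

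The group means of Il24 at day 6 were 1316 ± 452 (SD, n = 2) for KO hosts and 119 ± 21.3 (SD, n = 2) for WT hosts, a ratio of 11.1. On the scale of log2(signal + 16), used for all fold changes here because it damps the scatter of dim probe sets, the KO over WT difference was 3.27 (SE 0.42), which ranked 8 from the top among 12976 genes. From day 4 to day 6 the difference was 3.23 in KO and 0.37 in WT tumours. The KO effect at day 6 exceeded that at day 4 by 2.85 (SE 0.59).

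The skin and muscle on the second KO day 6 array came with the higher of both Il24 values. Without that array the day 6 difference was 2.92, and the remaining KO day 6 array had Il24 at 996.5 with cornified skin markers at 819.7 and muscle markers at 930.6, the lowest sums of all 8 arrays. Without the first KO day 6 array the difference was 3.62. The neutrophil markers moved the same way, with sums of 1887.6 and 3418.9 in KO and 1616.9 and 1415.5 in WT tumours at day 6. So did the carcinoma epithelium markers, with 51895.8 and 64789.1 in KO and 43053.3 and 45053.7 in WT tumours. Mast cell markers did too, with 1903.2 and 3213.9 in KO and 1699.4 and 1729.4 in WT tumours. Summed macrophage, dendritic cell and B cell markers went the other way, lower in both KO than in both WT tumours. The part of any of these in the Il24 level was not tested.

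At day 4 the Il24 comparison of KO with WT was open to a test, and the gene was not called. The difference was 0.42 (SE 0.42, limma, genome-wide adjusted p = 0.930), and the groups overlapped. It depended on the second WT day 4 array, with the muscle signal, where Il24 was at 52.1. Without that array the difference turned to −0.19.

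**Figure D1:**
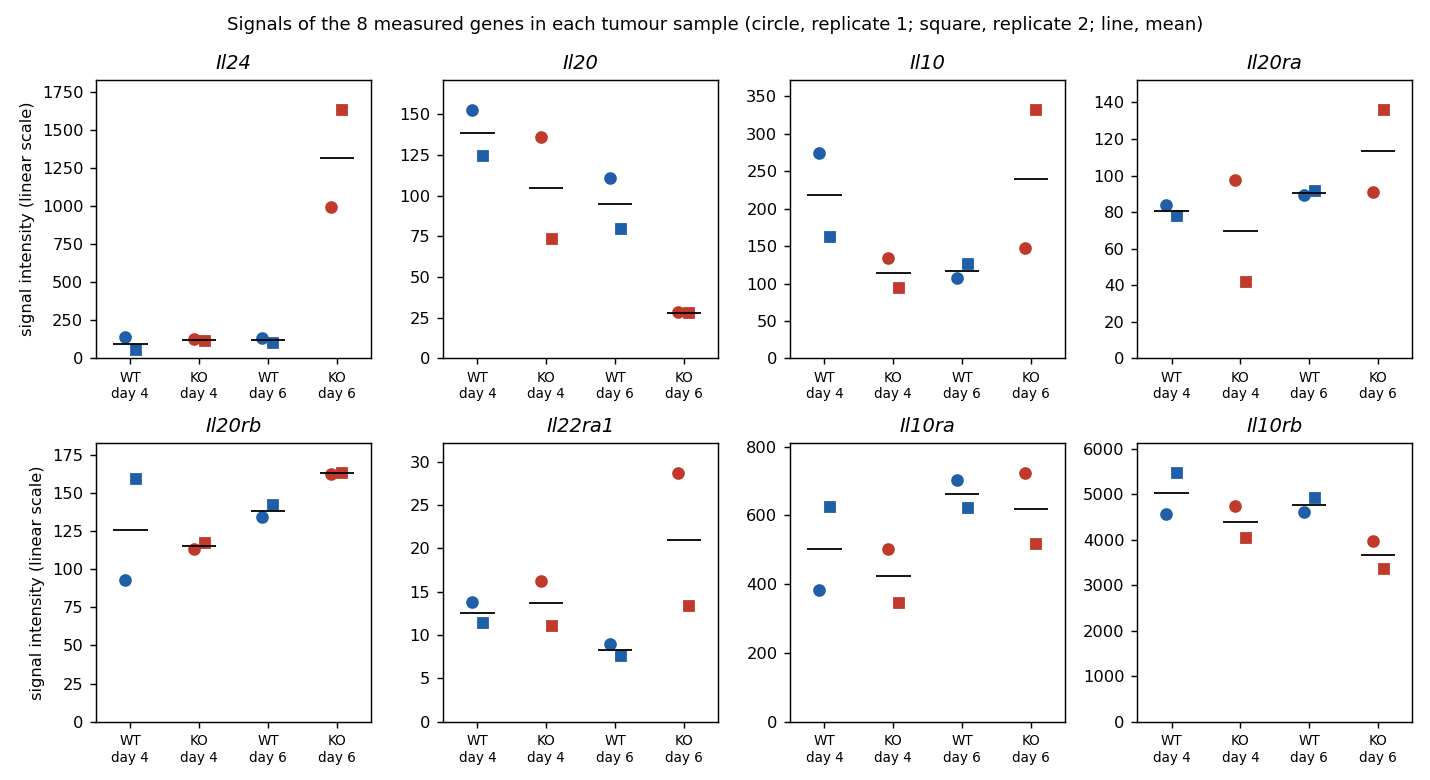
Signal intensity on a linear axis from 0 for the 8 genes with a probe set, each panel with its own scale, in WT (blue) and KO (red) tumours at day 4 and day 6. Circles are replicate 1, squares replicate 2 and lines the mean of the 2 arrays. Il24 reached 996.5 and 1635.5 in KO tumours at day 6 and was at 141.1 or less elsewhere, whereas Il20 had its lowest values, 28.4 and 27.7, in those same tumours.

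Il20, a ligand that shares both receptors with IL-24, ran opposite to Il24. Its signal was 28.4 and 27.7 in KO and 111 and 79.4 in WT tumours at day 6. At day 4 it was 136.1 and 73.6 in KO and 153 and 124.7 in WT tumours. Both KO day 6 values lay below the other 6, and the KO and WT values overlapped at day 4.

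The fold change of Il20 between KO and WT tumours at day 6 was −1.32 (SE 0.41, unadjusted p = 0.0119, limma), but with the adjustment over 12976 genes it was not called (adjusted p = 0.760). From day 4 to day 6 in KO tumours the fold change was −1.41 (SE 0.41, limma, adjusted p = 0.0788). Of the 7 genes given an adjusted p there, with Il22ra1 from the fit over all genes, Il20 came nearest to the threshold. Over the alternatives its fold change ranged from −1.80 to −0.85. The WT fold change over the same days was −0.49 (limma, adjusted p = 0.504), with both day 6 values below both day 4 values. Between day 4 and day 6 the KO effect shifted by −0.92 (limma, adjusted p = 0.995). Il20 passed the filter on low signals narrowly, since its mean of 80.7 was just above the limit of 78.6, and its KO day 6 values were far under that limit.

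Il10, the ligand that restrains macrophages, had KO values on opposite sides of the WT values at day 4 and day 6. At day 4 its signal was 134.5 and 93.8 in KO and 273.9 and 162.7 in WT tumours, so that both KO values were the lower ones. At day 6 it was 146.9 and 332.3 in KO and 106.7 and 125.5 in WT tumours, and both KO values were the higher ones. The log2 fold change of KO over WT was −0.82 (SE 0.43, limma, adjusted p = 0.772) at day 4 and 0.85 (SE 0.43, limma, adjusted p = 0.820) at day 6.

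The difference between both effects of Il10 was 1.68 (SE 0.60), with an unadjusted p of 0.0229 and an adjusted p of 0.995 by limma, so the change of direction was not called. Over time, Il10 differed by −0.79 in WT (limma, adjusted p = 0.290) and 0.89 in KO tumours (limma, adjusted p = 0.228). The high KO day 6 value was on the array with skin and muscle, and without it the day 6 fold change was 0.31. Summed macrophage markers were 73196.3 to 92802.5 on KO arrays and 99121.8 to 132603 on WT arrays, with no overlap, and their part in the Il10 levels was not tested.

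No receptor chain of the IL-20 cytokines was called. Il20rb, the chain common to both receptors, had signals of 162.5 and 163.1 in KO and 134.5 and 141.8 in WT tumours at day 6. At day 4 it had 113.4 and 117 in KO and 92.9 and 158.9 in WT tumours. The KO values were above the WT values at day 6 by 0.21 (SE 0.33, limma, adjusted p = 0.933), a gap smaller than its standard error. In KO tumours the day 6 values were above those of day 4 by 0.45 (SE 0.33, limma, adjusted p = 0.424).

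Il20ra, the second chain of the receptor for all 3 IL-20 cytokines, had signals of 91.1 and 136.1 in KO and 89.6 and 91.4 in WT tumours at day 6. At day 4 it had 97.7 and 42 in KO and 83.8 and 77.9 in WT tumours. The genotypes overlapped at both days, and the fold changes were −0.25 at day 4 (limma, adjusted p = 0.968) and 0.26 at day 6 (SE 0.43, limma, adjusted p = 0.938). The higher of the KO day 6 values came from the array with skin, without which the day 6 value was 0.0082, and without the second KO day 4 array the day 4 value turned to 0.23.

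Il22ra1, the chain that IL-24 and IL-20 share with IL-22, was the dimmest of these probe sets and lay below the filter. Its signals were 28.7 and 13.3 in KO and 9 and 7.6 in WT tumours at day 6, and 11.1 to 16.2 on the day 4 arrays. In a fit over all genes its KO over WT difference at day 6 was 0.58 (SE 0.40, limma, adjusted p = 0.875), or 1.15 with a pseudocount of 1, and its means had a ratio of 2.53. Its largest value was on the first KO day 6 array, where skin markers were low.

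Neither chain of the IL-10 receptor was called between genotypes. Il10ra, the ligand-binding chain carried by leukocytes, had signals of 723.8 and 516 in KO and 702.7 and 621.8 in WT tumours at day 6, and 501.6 and 346.2 in KO and 382.2 and 623.5 in WT tumours at day 4. The genotypes overlapped at both days, with fold changes of −0.22 at day 4 and −0.11 at day 6 (limma, adjusted p = 0.951 and 0.964). The KO values at day 6 were above those at day 4 by 0.53 (limma, adjusted p = 0.278). Of its other probe sets, one read 8.9 to 231.2 with a KO day 6 over day 4 log2 ratio of −2.17, and one read 1.3 to 7.9, so the direction for Il10ra held for the brightest probe set and turned to −0.58 when all were averaged.

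Il10rb, the chain shared with the receptors for IL-22 and the lambda interferons, had lower values in KO tumours at day 6. Its signals were 3971.3 and 3346 in KO and 4613.4 and 4908.9 in WT tumours, with no overlap, and at day 4 they were 4730 and 4027.9 in KO and 4571.5 and 5463.9 in WT tumours. The day 6 fold change was −0.38 (SE 0.15, unadjusted p = 0.0290, limma), and it was not called with the adjustment (adjusted p = 0.762). It ranged from −0.51 to −0.26 over the alternatives. A second, dimmer probe set gave −0.34 in the same comparison.

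Counted together, no tested gene of the list was called in any comparison by limma at an adjusted p under 0.05. Il24 was tested between genotypes at day 4 only, so the other counts leave it out. Il22ra1, below the filter, was counted from the fit over all genes, while the backgrounds cover genes at or above the filter. At day 4, 0 of 8 genes were called between KO and WT, where 0.0154% of all genes tested were, and none had an unadjusted p under 0.05. At day 6, with Il24 left out of the test, 0 of 7 were called against a background of 0.0154%, and 2 (Il20 and Il10rb) had an unadjusted p under 0.05. Between the days, 0 of 7 were called in WT tumours (background 5.83%) and 0 of 7 in KO tumours (background 6.23%), with 0 and 1 (Il20) at an unadjusted p under 0.05. For the difference of the KO effects 0 of 7 were called (background 0%), and only Il10 had an unadjusted p under 0.05. The methods' t-test gave 0 calls after adjustment in the 4 direct comparisons, with 2 unadjusted (Il20 and Il20rb) at day 6 and 1 (Il20rb) between the days in KO tumours.

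Groups of 2 arrays often fail to overlap, and the counts are to be read against that background. At day 4 the KO and WT values did not overlap for 1 of 8 genes, Il10, and for 35.6% of all genes. Il24 is left out of the counts with day 6 arrays, since its choice fixed its place there. At day 6 the genotypes did not overlap for 5 of the other 7, where 36.1% of all genes did not. Il10, Il20rb and Il22ra1 were the 3 higher in KO, and Il20 and Il10rb the 2 lower. Between the days, 4 of 7 did not overlap in WT (background 48.7%) and 5 of 7 in KO tumours (background 54.9%). The median log2 fold change over the 7 genes other than Il24 was −0.22 at day 4 and 0.21 at day 6 between genotypes, beside 0.01 and −0.01 over all genes. It was −0.07 between the days in WT and 0.45 in KO tumours, beside 0.01 and −0.00 over all genes.

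**Figure D2:**
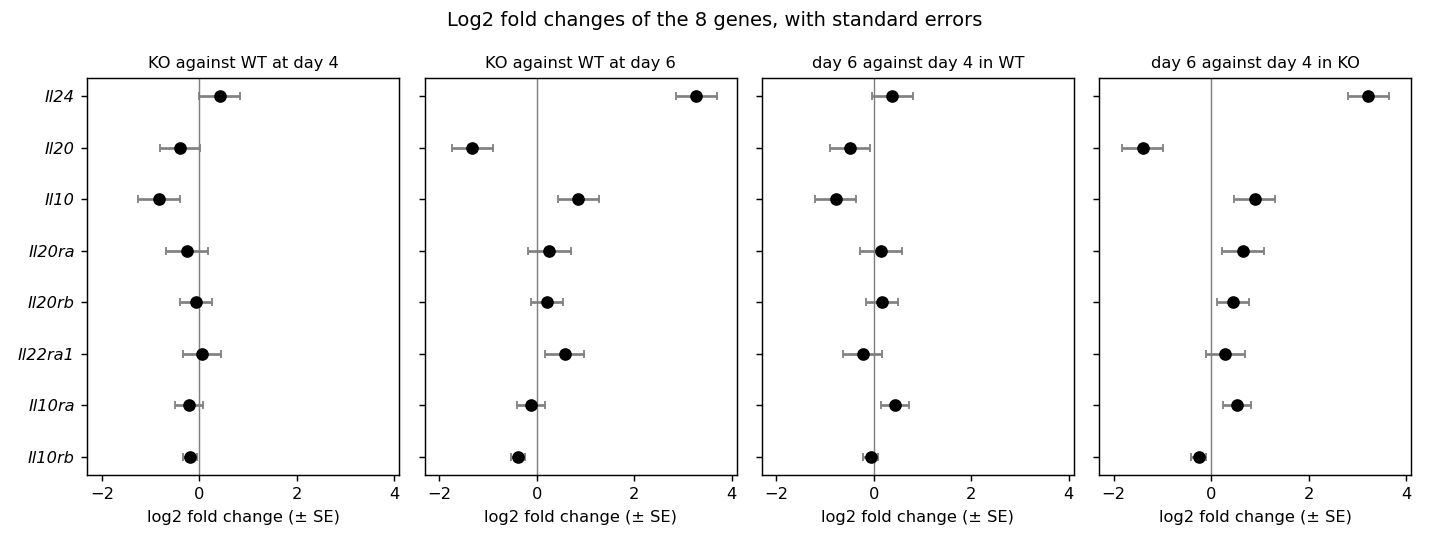
Log2 fold changes of the 8 genes on the scale of log2(signal + 16), with bars of 1 standard error from the limma fit over 4 groups of 2 arrays, in the 4 comparisons of genotype and day. Il24 lay at 3.27 and 3.23 in both contrasts with the KO day 6 arrays and Il20 at −1.32 and −1.41. The KO against WT and day contrasts share arrays, and no value other than that of Il24 lay above 1.

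Il24, Il20, Il19 and Il10 follow one another on chromosome 1, so their neighbours are given beside them. In the RefSeq gene order the run is Fcamr, Pigr, Fcmr, Il24, Il20, Il19, Il10, Mapkapk2, Dyrk3 and Eif2d. Next to Il24, the IgM receptor gene Fcmr had signals of 140.8 and 274.2 in KO and 102.8 and 87.4 in WT tumours at day 6, a log2 fold change of 0.94 (SE 0.44, limma, adjusted p = 0.798). Fcmr had values of 89.7 and 80.3 in KO and 170.6 and 82.1 in WT tumours at day 4, a fold change of −0.42. Like Il10, Fcmr had its highest value on the array with skin and muscle. Summed B cell markers were 210.9 to 681.2 over the 8 arrays, and at day 6 lower in KO (311.9 and 210.9) than in WT tumours (331.8 and 451.5). These markers were dim: of 6 listed, 3 passed the filter, and at day 6 1 of them was positive and 2 negative. Their part in the Fcmr values was not tested.

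On the far side of Il10, Mapkapk2, a kinase of the p38 pathway that stabilises cytokine mRNAs, differed by −0.16 at day 6, and Dyrk3 and Eif2d by 0.14 each, with none called. Fcamr (0.49) and Pigr (−0.36), both immunoglobulin receptor genes, were below the filter and not called. Along this run the values of Il24, Il20 and Il10 differed in size and direction, and at day 6 none of the 3 genes beyond Il10 departed from 0 by more than 0.16.

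**Figure D3:**
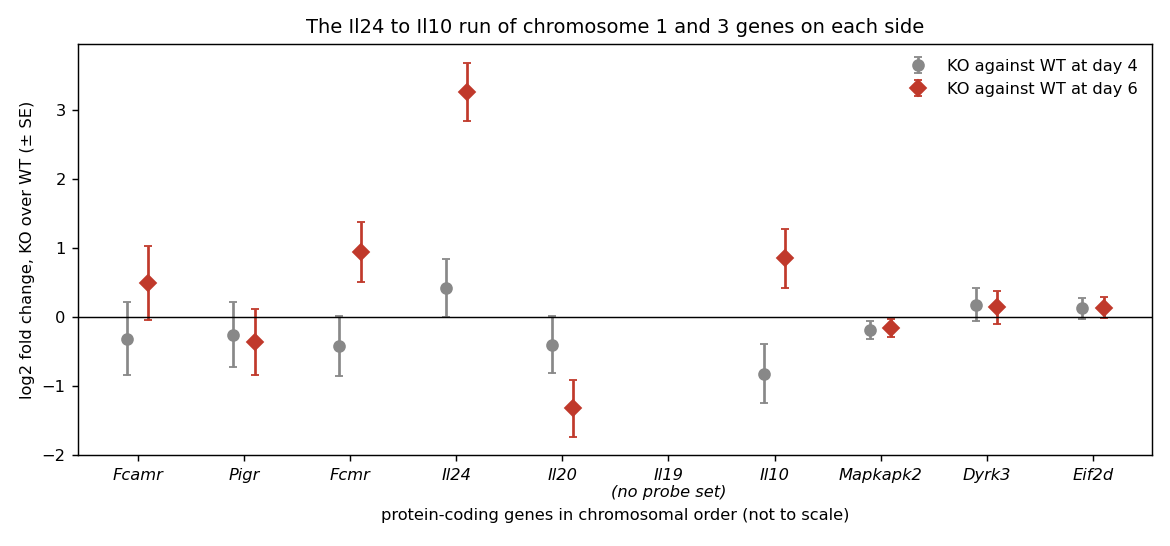
Log2 fold changes of KO over WT at day 4 (grey circles) and day 6 (red diamonds), with bars of 1 standard error, for the genes from Fcamr to Eif2d in their order on chromosome 1, not to scale. At day 6 Il24 stood at 3.27 and its neighbours Fcmr and Il20 at 0.94 and −1.32. Il19 had no probe set.

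Genes of the JAK-STAT pathway below these receptors were not called between genotypes. In KO tumours 2 of 13 tested (14 were listed) rose from day 4 to day 6, where 6.23% of all genes were called, and both are feedback inhibitors of cytokine receptors. Socs1 had signals of 235.5 and 307.2 at day 4 and 1645.9 and 1056.6 at day 6 in KO tumours, a rise of 2.23 (SE 0.26, limma, adjusted p = 0.0107). In WT tumours it had 325.6 and 288.6 at day 4 and 656.2 and 495.6 at day 6, a difference of 0.86 (limma, adjusted p = 0.0837). Socs2 rose by 1.31 in KO tumours (SE 0.27, limma, adjusted p = 0.0350) and differed by 0.75 in WT tumours (limma, adjusted p = 0.132). The gap between KO and WT changes was 1.37 for Socs1 and 0.56 for Socs2, neither of them called (limma, adjusted p = 0.995 for each).

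At day 6 the inhibitors Socs1, Socs2, Socs3 and Cish had positive but uncalled KO over WT values. That of Socs2, 0.32, turned to −0.04 without the first KO day 6 array. Pias3 and Ptpn6 of the same list had negative values, −0.11 and −0.38, also uncalled. At day 6 the KO over WT difference was 1.19 for Socs1, 0.78 for Socs3, a target of STAT3, and 0.78 for Cish, each with an adjusted p by limma of at least 0.704. Of 13 genes 8 were positive, with a median of 0.18 that was 0.07 without the first WT day 6 array. At day 4, 12 of 13 were negative with a median of −0.28, or −0.12 without the first WT day 4 array.

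Epithelial genes known to answer IL-20 cytokines mostly had positive KO over WT values at day 6, and the keratins among them had their largest signals on the array with skin. Of 11 tested among 20 listed, 0 were called between KO and WT tumours at day 6, and 9 were positive with a median of 0.86. Without the second KO day 6 array the median was 0.56. S100a9, the gene at the median, and S100a8 are abundant in neutrophils, and the 5 neutrophil markers tested were all positive in the same comparison with a median of 0.60. The part of neutrophils in the list's values was not tested. Among those tested, keratins gave the largest differences. Krt17 had 58.7 and 851.6 in KO and 43.6 and 27.2 in WT tumours, and Krt16 had 88.4 and 1307.6 in KO and 74.5 and 74.6 in WT tumours. Their fold changes were 2.33 and 2.04 with that array, and 0.56 and 0.21 without it, and the part of the skin in them was not tested. Cxcl5, a neutrophil chemokine, had 4424.4 and 3850.4 in KO and 2008.4 and 1673.3 in WT tumours, a fold change of 1.16 that was not called. Mmp3, a matrix metalloprotease named here after its values were seen, went the other way, with 2456.6 and 2445.5 in KO and 5200.2 and 5290.2 in WT tumours, a fold change of −1.09 (SE 0.22, limma, adjusted p = 0.704). At day 4 the list had 4 positive and 7 negative KO over WT values, none called. Their median was −0.14, or −0.87 without the second WT day 4 array.

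From day 4 to day 6 in KO tumours 2 of those 11 rose, beside 6.23% of all genes called in either direction. Hbegf, a ligand of the EGF receptor, rose by 0.63 (limma, adjusted p = 0.0450), and Tgm1, the transglutaminase of the cornified envelope, by 1.41 (limma, adjusted p = 0.0347). Tgm1 had 679.8 on the first KO day 6 array and 426.2 on the second, the one with skin, against 238.5 and 156.2 at day 4. No gene of this list was called between the days in WT tumours, and none for the gap between KO and WT changes.

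The genes by which macrophages answer IL-10 were likewise not called between genotypes. At day 6, 7 of 10 (11 were listed) were positive with a median of 0.29, which was 0.12 without the first KO day 6 array and 0.10 without the first WT day 6 array. At day 4 all 10 were negative with a median of −0.22, which was −0.46 without the first KO and −0.47 without the second WT array. The 7 macrophage markers on the array had medians of −0.60 at day 4 and −0.53 at day 6, and their part in these values was not tested. Cd163, a scavenger receptor of macrophages, had 2411.4 and 3997.2 in KO and 1413.3 and 1688.1 in WT tumours at day 6, with no overlap and no call (limma, adjusted p = 0.760). In KO tumours 2 of the 10 rose from day 4 to day 6 (background 6.23%): Bcl3, a nuclear partner of NF-kB, by 1.17 (limma, adjusted p = 0.0391) and Il4ra, the IL-4 receptor chain, by 0.96 (limma, adjusted p = 0.0449). Their WT changes were 0.58 and 0.07 (limma, adjusted p = 0.202 and 0.880), and the gaps between KO and WT changes were not called.

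Of the cytokines that can induce Il24 or Il10, 8 of 12 listed were tested and 0 were called at day 6 between genotypes, with 6 positive and a median of 0.38. Il6, which the study also picked from these arrays so that its value is no independent evidence, rose in KO tumours between the days by 1.59 (limma, adjusted p = 0.0227). Its WT change was 0.52 (limma, adjusted p = 0.265), and the gap of 1.07 between KO and WT changes was not called. Il13, a type 2 cytokine below the filter, had 138.3 and 94.2 in KO and 7.1 and 15.3 in WT tumours at day 6, beside 10.7 and 12 in KO and 55.8 and 19.8 in WT tumours at day 4. Its KO over WT difference at day 6 was 2.28 (SE 0.46) and not called in the fit over all genes (limma, adjusted p = 0.726).

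Of 11 other IL-10 family ligands and class II cytokine receptors, the structural class of these receptor chains, 5 were tested. None had a positive KO over WT value at day 6. The median was −0.11, and −0.20 to −0.02 with single day 6 arrays left out. The value of the interferon receptor gene Ifnar1 was −0.0005 (SE 0.15) and that of F3 −0.02 (SE 0.29). Without the second KO day 6 array they turned to 0.09 and 0.36, while the others stayed negative. From day 4 to day 6 in KO tumours 2 of the 5 fell (background 6.23%). Ifngr1, the ligand-binding chain of the interferon-gamma receptor, fell by 0.60 in KO tumours from day 4 to day 6 (limma, adjusted p = 0.0478). Its WT change was −0.08 (limma, adjusted p = 0.777), and the gap of −0.52 was not called. F3, tissue factor and a relative of this class, fell by 1.81 in KO (limma, adjusted p = 0.0211) and by 1.64 in WT tumours (limma, adjusted p = 0.0234), the only gene of the 5 lists called in WT. The calls between days in KO tumours rested on both KO day 4 arrays. Without the first or the second of them 3 or 5 of all genes were called in that comparison, and each of the listed genes lost its call, with a limma adjusted p of up to 0.277. Ifngr1, Hbegf, Bcl3 and Il4ra lost theirs also without any one of the 4 day 6 arrays, Tgm1 without either KO day 6 array, Socs2 and Il6 without the first of these and F3 without the second. With the methods' t-test all 9 lost their call in that comparison, and without limma's trend all but Socs1. Ifngr1 and Hbegf lost theirs with a replicate block, and Ifngr1, Hbegf, Tgm1, Bcl3 and Il4ra with no filter on low signals. Without the first WT day 4 or WT day 6 array, or without either KO day 4 array, F3 lost its call in WT tumours (limma, adjusted p of up to 0.156). It lost that call also with the compared groups fitted alone, without the trend and with the methods' t-test.

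**Figure D4:**
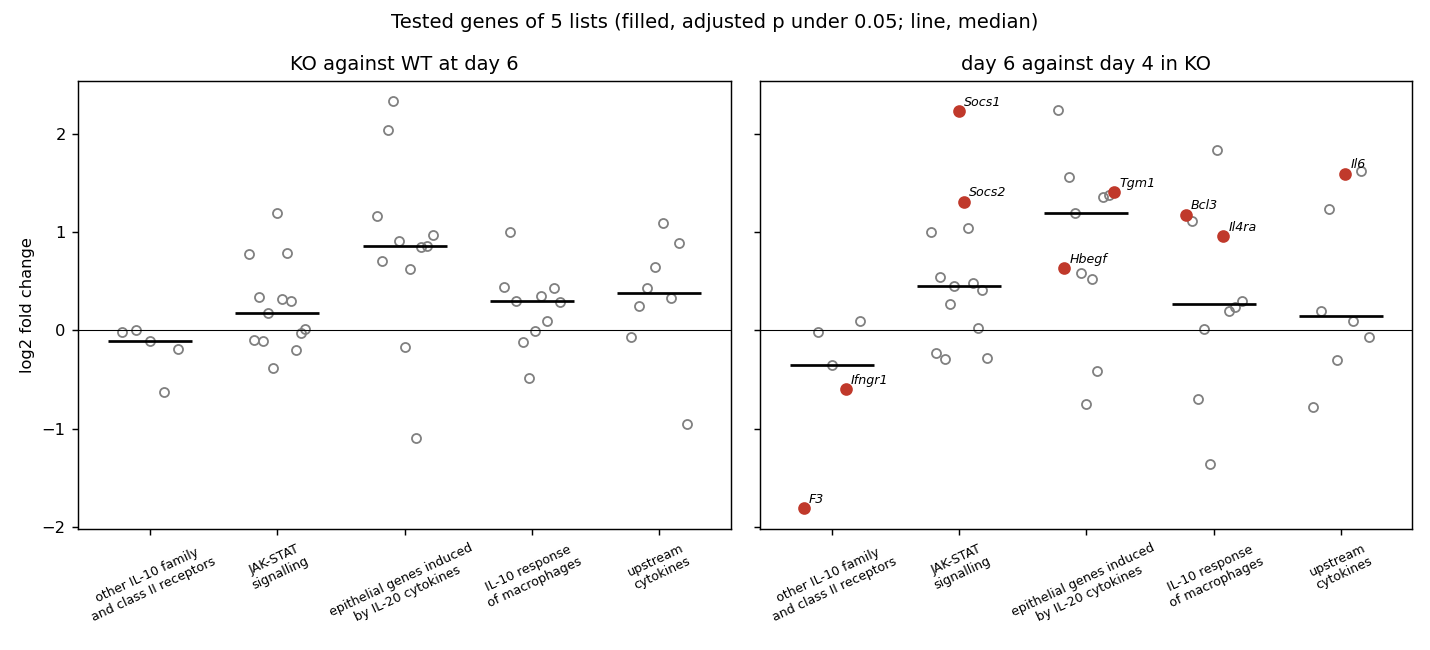
Log2 fold changes of the tested genes of 5 lists, for KO against WT at day 6 and for day 6 against day 4 in KO tumours; open circles were not called, filled circles had a limma adjusted p under 0.05 and lines are medians. The panel of genotypes has no filled circle, and its epithelial genes have the highest median, 0.86. In the panel of days, Socs1 is the highest filled circle, at 2.23, and F3 the lowest, at −1.81.

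The genes whose pattern was most like that of Il24 over the 8 arrays were Ston2 (Pearson r = 0.968 on the log2 scale), Cep43 (0.954), Hbegf (0.953), Edc4 (0.950), Mcph1 (0.950), Mapk6 (0.950), Rbm18 (0.949), Nmt1 (0.949), Kcnj15 (0.949) and Dnaja1 (0.946). The correlations share the same 8 arrays, 2 of which hold all the high Il24 values, and they describe these libraries only. Kcnj15, a potassium channel gene, had 269.9 and 299.2 in KO and 108.2 and 70.3 in WT tumours at day 6, and 54.9 to 63.2 on the day 4 arrays. Hbegf had 3387.9 and 4443.4 in KO and 2375.8 and 2372.8 in WT tumours at day 6, and 2334.6 to 2629.2 at day 4. None of the other ligands and receptor chains of the gene list was among the 10. Il22ra1, below the filter, and Il19, with no probe set, could not be.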

How the data were processed

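RNA from whole tumours was hybridised to 8 mouse expression arrays. Per the labels, the authors prepared biotinylated cRNA, and the deposited intensity values are linear MAS5 signals (MAS5 per the submitters' processing notes, with no version given) for 45101 probe sets. On every array the mean after trimming 2% at each end was 1000, and the medians were 133.2 to 175.2. The number of arrays limits the precision. Probe sets were named from the platform annotation: 34958 had 1 symbol, 932 several and 9211 none, and 34754 of the first were matched by Entrez ID.

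The brightest probe set stood for each of 18194 genes. Log2(signal + 16) values of 12976 genes at or above the 40th percentile were fitted with limma 3.58.1 (R 4.3.3; eBayes with trend, 4 groups, Benjamini-Hochberg over all genes), tested on simulated data first. Genes below the filter come from a fit over all genes. Alternatives were the pseudocount, scaling, filter, probe sets, trend, samples in the fit, a replicate block, the methods' t-test and leaving out each array.

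Named genes were the listed members, 3 chromosomal neighbours on each side, called genes and at most 3 uncalled ones of each pathway list, and the 10 genes most correlated with Il24. Mmp3, S100a8, S100a9, Pias3, Ptpn6 and Ifnar1 were named beyond this rule, after their values were seen. The members and lists were chosen with earlier results of these data known.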

Additional observations from a re-analysis of the deposited data

Results flagged for a closer look

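Il10 was the only one of the 8 cytokine and receptor genes whose KO values lay wholly on opposite sides of the WT values at both days. Both KO values lay below both WT values at day 4 and above them at day 6, and equally both day 6 values lay below the day 4 values in WT and above them in KO tumours. The difference between the effects was 1.68 on the log2 scale (SE 0.60) in either reading. It was not called by limma (adjusted p = 0.995), and the adjusted p over the alternatives ranged from 0.564 to 0.9998.

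Of the other genes named, 5 had KO values below the WT values at day 4 and above them at day 6, with differences between the effects of 1.95 for Cd163, 1.52 for Tgm1, 0.89 for Il4ra, 3.02 for Krt16 and 3.17 for Il13. Without the second KO day 6 array, the one with skin, the value for Krt16 was 1.19, and Il13 lay below the filter. Cd163 and Il13 also went opposite ways between the days in WT and KO tumours. None of these differences was called by limma. With 2 arrays per group, the genotypes did not overlap for 35.6% of all genes at day 4 and 36.1% at day 6. The share of all genes on opposite sides at both days was not counted, so these reversals, that of Il10 included, have no background.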

How the results depend on the processing

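The Il24 difference between KO and WT tumours at day 6 stayed positive in all 18 alternatives. The kept sign is no measure of stability, since both KO values lay far above both WT values and the gene was chosen for that. The difference ran from 2.88 with a pseudocount of 64 to 3.62 without the first KO day 6 array. That pseudocount adds more to low signals, so by its construction it lowers the fold change of a gene that is dim in 1 group. Many alternatives could not change the Il24 difference and left it at 3.27. These were the filters, the trend, the replicate block, the groups fitted alone, the averaging of probe sets and leaving out a day 4 array. No tested gene of the list was called in any comparison under any alternative, and Il24 was tested at day 4 only. Of 694 further fold changes of these genes, 653 moved by less than the spread between replicates. Many of the 694 could not move, as with a changed filter or without an array outside the comparison, so this count is no measure of stability. Of the 694, 22 changed sign, none of them called. Most of those were of Il10ra, Il20rb or Il22ra1, or came from leaving out the second WT day 4 array. The cause was not tested. The median of the epithelial list between the days in KO tumours was 1.19, and 0.44 without the second KO day 6 array.

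Counts over all genes depended far more on the processing. They ran from 0 to 11 for genotypes at day 4 (2 in the analysis reported), 0 to 26 at day 6 (2), 0 to 1784 between days in WT (756), 1 to 1747 in KO tumours (809) and 0 to 9 for the difference of effects (0). Median centring gave 1784 and 1342 calls between days in WT and KO, limma without the trend 9 and 74, groups compared alone 11 and 1747, all probe sets averaged 422 and 374, and the methods' t-test 0 and 1.

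Arrays with the same replicate number correlated at −0.12 to 0.27 in their deviations from the group means, so the numbers were not taken to pair the samples. With a replicate block the Il24 difference at day 6 was 3.27, which this setting cannot change, since every group holds both replicate numbers. No tested gene of the list was called with the block, and Il24 was tested at day 4 only. With the block, 463 and 325 genes were called between days in WT and KO tumours. With 2 arrays per group and signals of Il20, Il20ra and Il22ra1 near or below the filter, small differences could not be resolved.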
